A study of Arabidopsis thaliana with 18 samples.

Results

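A set of 137 probe sets, of 22746 measured (0.602%), was shifted in the same direction in tfl1-1 seedlings at both growth temperatures of an ambient temperature study in Arabidopsis thaliana. A probe set entered when the mean of 3 tfl1-1 arrays differed from the mean of 3 WT arrays by 0.6 or more on the log2 scale, with the same sign, at 23 °C and at 16 °C, and when elf3-7 differed from WT by less than 0.6 at one or both temperatures. The set has a higher side of 93 probe sets and a lower side of 44. A further 14 higher and 4 lower probe sets met the tfl1-1 condition but were left out by the elf3-7 condition, among them HIS1-3, AT4G27450 and AT3G15450 on the higher side and AT1G43590 and BGLU19 on the lower. The members were chosen by the tfl1-1 minus WT and elf3-7 minus WT differences, so these differences are described here and not tested.

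Whole seedlings of 3 genotypes, the mutants tfl1-1 and elf3-7 and WT Columbia, were grown on agar for 10 days under continuous light at 23 °C or at 16 °C, after all seed had been kept at 4 °C for 3 days. Each of the 6 groups held 3 biological replicates, lettered A, B and C, on 18 Affymetrix arrays, which hold probe sets of short oligonucleotides, each reading a transcript or a few related transcripts. The study's title places the comparison in the control of flowering time by ambient temperature. Each mutant is a single allele, and the labels name the Columbia background only for WT. All plants had the same age in days, whatever the temperature.

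TFL1 belongs to the phosphatidylethanolamine-binding protein family, like the flowering promoter FT, and represses flowering and keeps the shoot meristem indeterminate. It has no DNA-binding domain of its own and acts with the bZIP factor FD at target genes. ELF3 is part of the evening complex of the circadian clock and also delays flowering, so both mutants flower early.

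Values are RMA log2 expression values, on which a difference of 1 is a doubling. Of the 137 members, 61 name a single gene, each a different one, 5 name several genes and 71 are unnamed here. The share with a single gene was 44.5% among members, against 59.4% of all probe sets, so the named genes below are a minority of the set. The smaller of the 2 differences had a median of 0.68 in the 45 named and 0.69 in the 46 unnamed members of the higher side. No probe set was named here as TFL1 or ELF3, so neither mutant label could be checked against its gene. The root marker PYK10 averaged between 11.7 and 12.2 in the 6 groups, and the light-harvesting gene LHCB4.2 between 12.3 and 12.7, and both were bright in every group. The 2 other measured root markers, the root hair expansins EXPA7 and EXPA18, were dim at 23 °C, at 3.57 and 3.66 in tfl1-1 and 3.51 and 3.61 in WT. At 16 °C they reached 4.65 and 5.22 in tfl1-1 and 4.49 and 5.07 in WT. In elf3-7 they were higher, at 4.21 and 4.37 at 23 °C (SD 0.77 and 0.82) and 5.03 and 5.785 at 16 °C (SD 1.05 and 1.36). No floral organ or seed marker fixed for the check was named here. In whole seedlings, fewer cells of a type and less RNA per cell cannot be told apart.

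The shifts were mostly modest. On the higher side the median tfl1-1 minus WT difference was 0.79 at 23 °C and 0.77 at 16 °C, with values up to 1.58 and 1.99. On the lower side the medians were -0.78 and -0.69, and the lowest values were -2.47 and -2.08. A change of at least 2-fold at both temperatures was reached by 5 higher and 2 lower members. None of the members had a mean under 4 over the arrays, against 7212 of all probe sets, and their median levels were 6.78 on the higher and 6.93 on the lower side, against 5.60 for all probe sets.

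The smaller of the 2 differences had a median of 0.68 in named higher and 0.67 in named lower members, close to the threshold of 0.6. The named genes nearest to that threshold, picked for their nearness, were as follows. Just inside it on the higher side were AT1G80180 with 0.80 at 23 °C and 0.60 at 16 °C, AT1G70820 with 0.61 and 0.60, and AT1G19020 with 0.60 and 0.87. Just outside were AT3G03870 with 0.60 (unrounded, below 0.6) and 0.93, AT5G57655 with 0.59 and 0.83, and AT3G60520 with 0.59 and 1.09. On the lower side AT1G53070 (-0.69 and -0.61), AT4G29030 (-0.67 and -0.61) and UF3GT (-0.62 and -0.72) lay just inside. AT5G06590 (-0.67 and -0.59), AT2G25270 (-0.70 and -0.59) and 3xHMG-box2 (-0.63 and -0.59) lay just outside.

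Across all probe sets, limma at a Benjamini-Hochberg adjusted p under 0.05 called 8 probe sets for tfl1-1 minus WT at 23 °C (0.0352%), of which 3 were members. On the higher side 2 of 93 members were called (0.022% of all probe sets were called higher), among them AT1G73480, and on the lower side 1 of 44, SAT32 (0.0132% were called lower). At 16 °C limma called 0 (0%). At an unadjusted p under 0.05 the counts over all probe sets were 1924 at 23 °C and 1717 at 16 °C. These are the contrasts that chose the members, so nothing is read from the counts. The arrays of tfl1-1 and WT did not overlap for 16 of 93 higher members at 23 °C (3.52% of all probe sets) and 70 of 93 at 16 °C (7.96%). On the lower side they did not overlap for 4 of 44 members at 23 °C (6.65%) and 36 of 44 at 16 °C (11.2%).

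SAT32 was the member with the widest difference at both temperatures. It is named SALT-TOLERANCE 32 and its protein belongs to the interferon-related developmental regulator family. At 23 °C its level was 5.22, 4.67 and 5.92 in replicates A, B and C of tfl1-1, against 7.70, 8.12 and 7.39 in WT. The 16 °C levels were 5.38, 4.98 and 5.74 in tfl1-1, against 7.38, 7.37 and 7.59 in WT. All 6 tfl1-1 arrays lay below all 6 WT arrays, and the mean difference was 5.52-fold at 23 °C and 4.23-fold at 16 °C. In elf3-7 the level was 7.98, 7.54 and 7.25 at 23 °C and 7.52, 7.76 and 7.29 at 16 °C, within or beside the WT range. Its 23 °C minus 16 °C difference, which the choice of members did not use directly, was -0.10 in tfl1-1, 0.07 in elf3-7 and 0.29 in WT (SE 0.29 each), with limma adjusted p of 0.877, 0.932 and 0.608. A temperature difference was therefore not detected in any genotype for the member with the widest genotype difference.

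The lower side also held DFR, which encodes dihydroflavonol reductase, an enzyme on the path from flavonoids to anthocyanins. Its level at 23 °C was 3.39, 3.30 and 5.10 in tfl1-1, against 3.64, 5.69 and 6.63 in WT, where the WT array of replicate A lay within the tfl1-1 range. The 16 °C levels were 6.76, 5.56 and 6.47 in tfl1-1, against 7.55, 7.02 and 7.14 in WT, without overlap. In elf3-7 at 16 °C it was 8.68, 9.32 and 8.60, above every other group at that temperature. UF3GT, a sugar transferase of anthocyanin synthesis, differed between tfl1-1 and WT by -0.62 at 23 °C and -0.72 at 16 °C, and between elf3-7 and WT at 16 °C by 0.70.

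These were the 2 members in a list of 14 flavonoid and anthocyanin genes, of which 5 were measured under a single gene name. All 5 had tfl1-1 minus WT differences below 0 at both temperatures, as had 37.4% of all probe sets, with list medians of -0.48 at 23 °C and -0.76 at 16 °C, against -0.03 and -0.02 over all probe sets. Since 2 of the 5 were chosen by these differences, the count is not independent of the rule. The other measured genes were AT5MAT, an acyltransferase of anthocyanin (-0.48 and -0.78), AT4G14090, a glucosyltransferase of anthocyanin (-0.31 and -0.76), and UGT78D2, a flavonoid glucosyltransferase (-0.20 and -0.06). Of the 10 other lists, covering flowering, clock, defence, jasmonate and ethylene, cold, heat shock and tissue markers, none held a member. In all, 29 of the 103 genes of the 11 lists were measured under a single name, and the 2 lists of floral organ and seed genes had none. Some of these lists had medians away from 0 without holding a member. The 3 measured genes of the 13 on the clock list were GI, COR27 and AT4G33980 (COR28), with medians of 0.46 at 23 °C and 0.88 at 16 °C. GI, which is also on the flowering list, had 0.87 and 0.20. The 4 cold response genes had medians of 0.25 and 0.98, and the 4 jasmonate and ethylene genes 0.47 and 0.44. Both differences were above 0 for 3 of 3 clock, 3 of 4 cold response and 2 of 4 jasmonate and ethylene genes, against 26.2% of all probe sets. The flowering list had 6 measured genes, with medians of 0.05 at 23 °C and 0.08 at 16 °C, among them FD at 0.002 and 0.01.

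PRL, also called PROLIFERA, encodes MCM7, a subunit of the helicase that licenses DNA replication. Its level at 23 °C was 5.81, 5.28 and 7.33 in tfl1-1, against 6.54, 6.87 and 7.56 in WT, so that tfl1-1 replicate C lay among the WT arrays. Its 16 °C levels were 7.32, 7.29 and 6.78 in tfl1-1, all below 7.56, 8.24 and 7.82 in WT. Of the thaumatin-like proteins, a family named for a sweet-tasting plant protein and related to pathogenesis-related proteins, ATLP-1 differed by -1.12 at 23 °C and -0.89 at 16 °C and AT2G28790 by -0.74 and -0.97. The other named lower members with a known family were AT1G06100, a fatty acid desaturase family gene (-0.79 and -0.85), AT1G30600, a subtilisin-like protease (-0.81 and -0.66), AT4G36180, a leucine-rich repeat receptor kinase (-0.63 and -0.69), AT1G53070, a legume lectin family gene (-0.69 and -0.61), and AT3G07320, a glycosyl hydrolase of the glucanase type (-0.84 and -0.62). AT3G12870, AT4G28310, AT4G02800, AT2G36885 and AT4G29030 completed the named lower members, with differences between -0.89 and -0.61.

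On the higher side, AT1G05340, of the cysteine-rich transmembrane family, had the widest smaller difference of the named members, 1.29 at 23 °C and 1.28 at 16 °C. At 23 °C its level was 8.88, 8.06 and 5.71 in tfl1-1, against 8.04, 5.78 and 4.96 in WT. At 16 °C it was 7.18, 7.01 and 7.39 in tfl1-1, against 6.81, 5.21 and 5.72 in WT. The 23 °C arrays overlapped widely, tfl1-1 replicate C lying below both A and B of WT, while the 16 °C arrays did not overlap.

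AT1G73480, an alpha/beta hydrolase family gene, was tighter. Its level at 23 °C was 8.10, 8.35 and 7.58 in tfl1-1, against 6.93, 6.44 and 6.43 in WT. In the cooler plants, at 16 °C, it was 7.20, 6.82 and 7.01 in tfl1-1, against 5.997, 6.25 and 6.48 in WT. No tfl1-1 array overlapped a WT array of its temperature, and the fold difference was 2.66 at 23 °C and 1.70 at 16 °C. In elf3-7 it was 7.02, 6.65 and 6.58 at 23 °C and 6.24, 6.02 and 6.13 at 16 °C, close to WT.

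BHLH101, a basic helix-loop-helix factor of the iron deficiency response, showed the opposite case. At 23 °C its level was 8.98, 6.44 and 7.12 in tfl1-1, against 8.82, 5.54 and 6.16 in WT. At 16 °C it was 4.04, 6.09 and 6.54 in tfl1-1, against 5.72, 3.73 and 3.97 in WT. Replicate A at 16 °C was lower in tfl1-1 by 1.68, against differences of 2.36 and 2.58 the other way in B and C. The group means therefore met the rule (0.68 and 1.08) while the arrays overlapped at both temperatures. BHLH101 lies 35 protein-coding genes from TFL1 in the RefSeq gene order, the nearest of the named members on that chromosome.

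**Figure D1:**
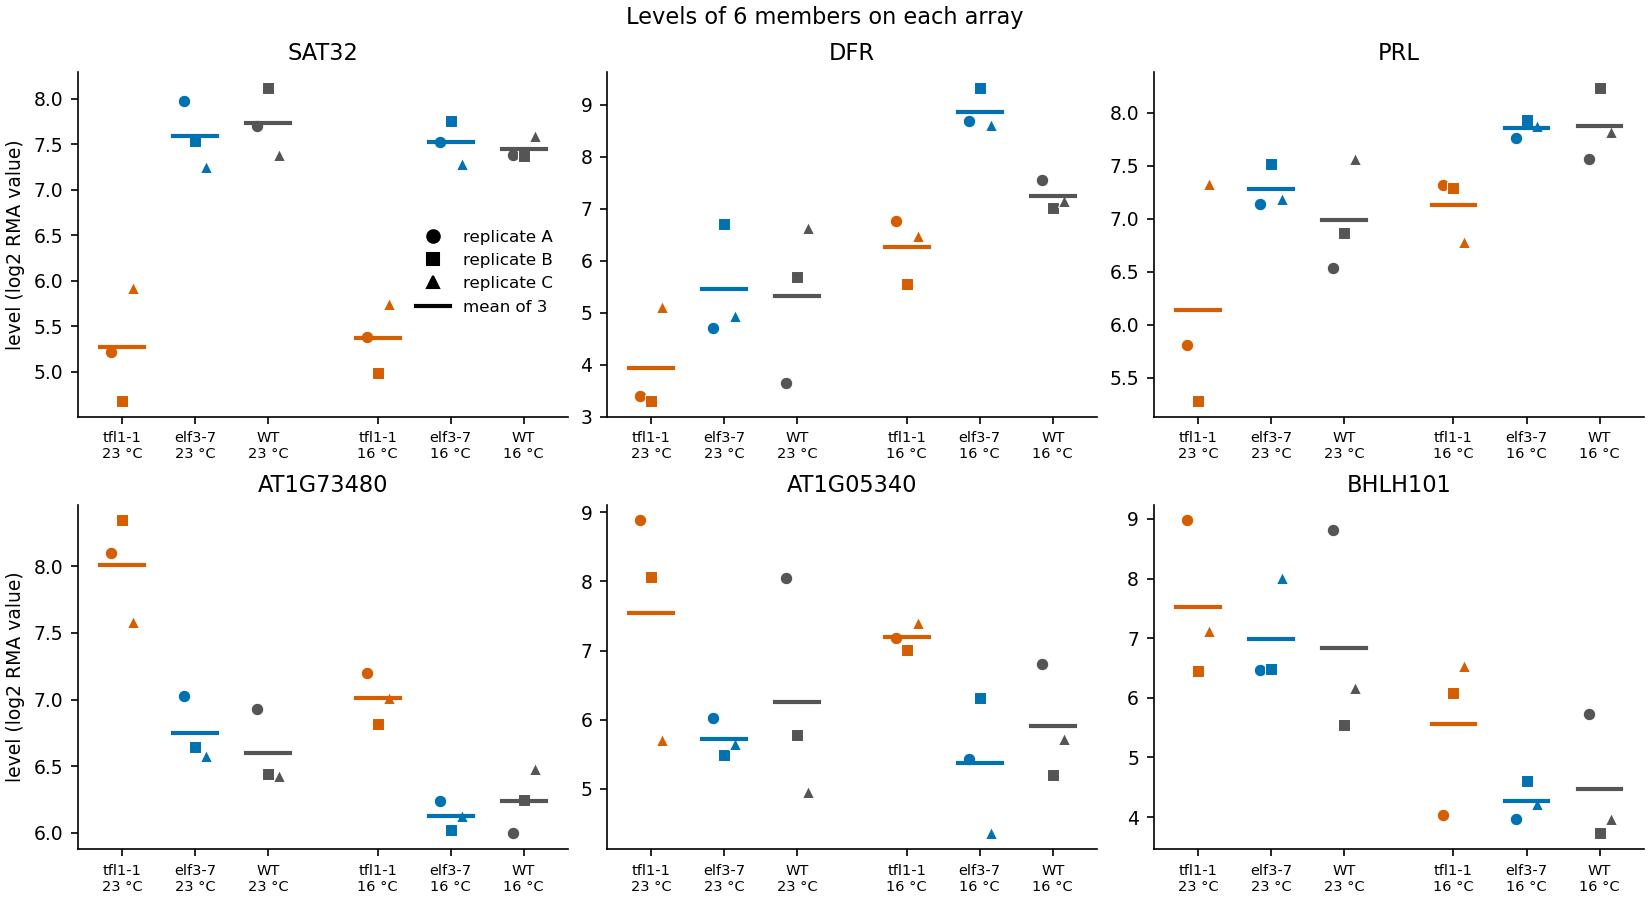
Level of 6 members (log2 RMA value, vertical axis, a separate scale in each panel) in tfl1-1, elf3-7 and WT at 23 °C (left) and 16 °C (right). Points are arrays, shaped by replicate letter, and bars are means of 3. SAT32 is lower on every tfl1-1 array than on every WT array, AT1G73480 is separated at each temperature, and the other 4 members overlap between tfl1-1 and WT at 23 °C.

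Other named higher members covered several families. Metabolic and secreted enzymes included IVD, isovaleryl-CoA dehydrogenase of leucine breakdown (0.94 at 23 °C and 0.94 at 16 °C), ATSBT5.2, a subtilisin-like protease (0.79 and 1.11), AT4G20860, a berberine bridge enzyme-like oxidase (0.77 and 0.78), AT3G19390, a granulin-repeat cysteine protease (0.89 and 0.74), and CYP71B23, a cytochrome P450 (0.82 and 0.66). AT2G19970, of the family of pathogenesis-related protein 1, differed by 1.14 and 0.97. AT1G66760, a MATE-type efflux carrier, differed by 0.88 and 0.88, and AT1G33970, of a GTPase family named for avirulence-induced genes, by 0.74 and 0.74. AT4G27657, AT4G39675, AT5G18130, AT3G18560, AT1G70420, AT1G13990 and AR781 had differences between 0.69 and 1.74.

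IVD illustrates the spread behind such means. Its level at 23 °C was 10.11, 9.56 and 7.22 in tfl1-1, against 9.47, 7.85 and 6.75 in WT. At 16 °C it was 7.89, 8.04 and 8.23 in tfl1-1, against 7.71, 6.65 and 6.98 in WT. At 23 °C the SD was 1.53 in tfl1-1 and 1.37 in WT (n = 3 each), wider than the mean difference of 0.94, while at 16 °C the SDs were 0.17 and 0.54.

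The members also differed between elf3-7 and WT more often than probe sets in general, within what the rule allowed. Over the higher side the median elf3-7 minus WT difference was -0.05 at 23 °C and -0.17 at 16 °C, and over the lower side 0.36 and 0.002. Both differences were under 0.6 in size for 61 of 93 higher members (65.6%) and 35 of 44 lower members (79.5%), against 94.9% of all probe sets. At 16 °C, 18 of the 93 higher members (19.4%) had elf3-7 minus WT at -0.6 or less, against 1.76% of all probe sets, and 4 at 0.6 or more. These differences entered the rule and are a description. Named genes among the 18 included AT1G01240 (-1.17), AT2G37750 (-1.11), IVD (-0.92) and AT1G13990 (-0.90). On the lower side at 16 °C, 5 of 44 members had elf3-7 minus WT at 0.6 or more, against 353 of all 22746 probe sets, and 0 at -0.6 or less.

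**Figure D2:**
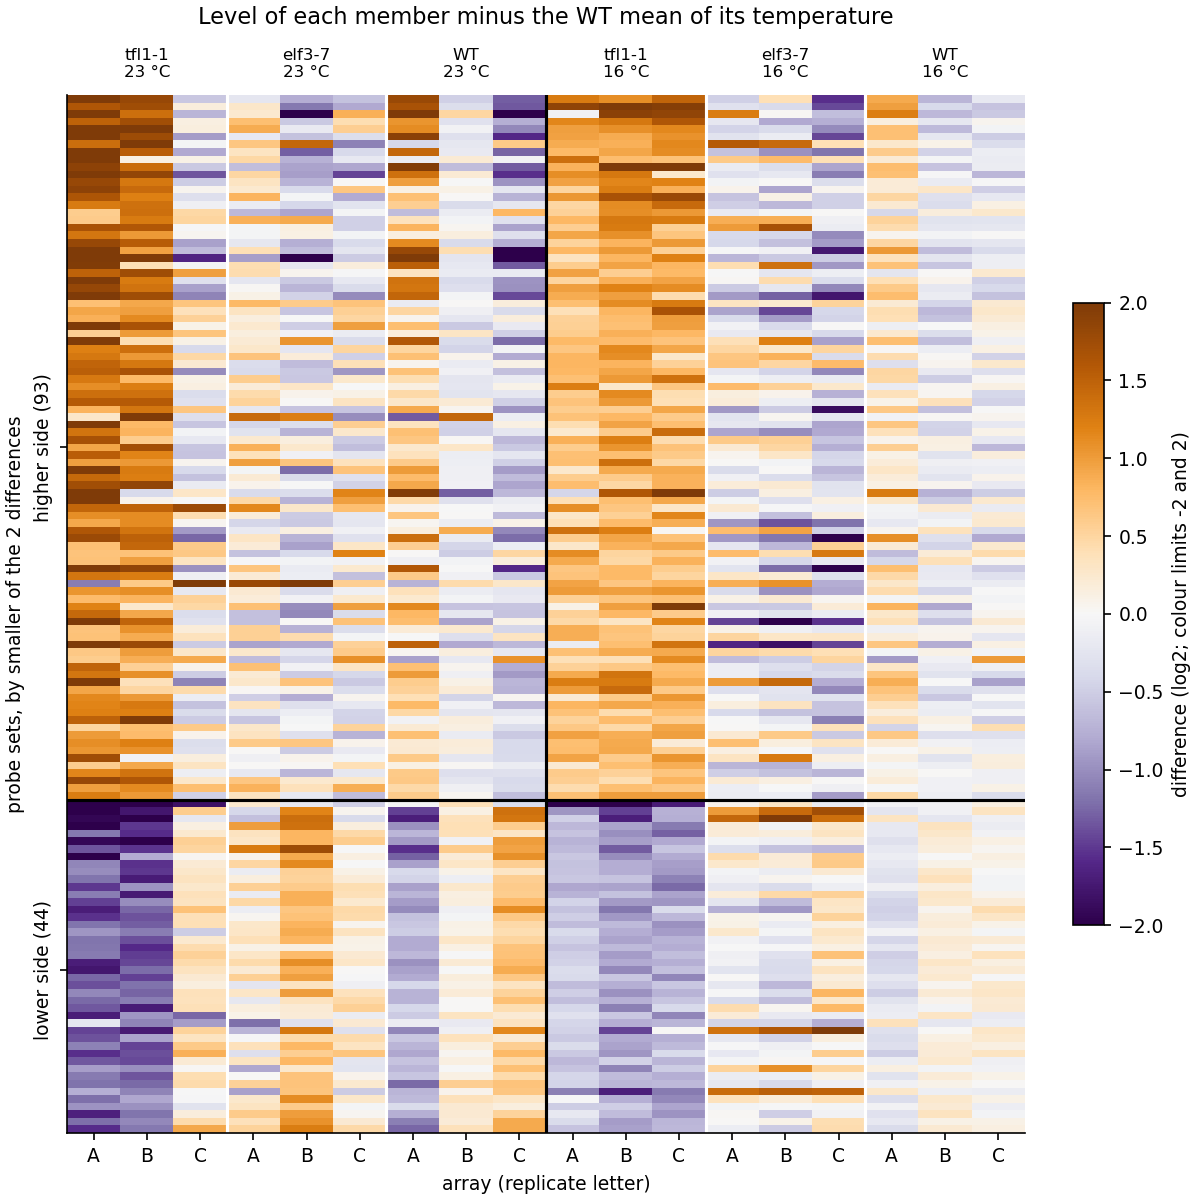
Level of each of the 137 members (rows, ordered within each side by the smaller of the 2 tfl1-1 minus WT differences) on each of the 18 arrays (columns), minus the WT mean of the same temperature, in log2 units. At 23 °C, tfl1-1 replicates A and B carry the strongest colours, replicate C is close to the WT mean, and WT replicate A is shifted toward tfl1-1.

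The arrays of a group differed among themselves. Averaged over the 93 higher members, the level at 23 °C was 8.36, 8.10 and 6.83 in replicates A, B and C of tfl1-1, against 7.55, 6.80 and 6.38 in WT. Averaged over the 44 lower members it was 5.14, 5.14 and 6.71 in tfl1-1, against 5.73, 6.67 and 7.14 in WT. At 23 °C tfl1-1 replicate C thus lay among the WT arrays on both sides of the set, and WT replicate A lay nearest to tfl1-1.

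At 16 °C the tfl1-1 and WT arrays lay closer together within their groups. The 93 higher members averaged 7.00, 7.22 and 7.21 in tfl1-1, against 6.62, 6.11 and 6.19 in WT, and the 44 lower members 7.25, 6.90 and 7.03, against 7.59, 7.96 and 7.91. No tfl1-1 array overlapped a WT array in either average, and WT replicate A was again the nearest. In elf3-7 the higher members averaged 7.09, 6.66 and 6.88 at 23 °C and 6.26, 6.20 and 5.82 at 16 °C, and the lower members 6.64, 7.27 and 6.66 at 23 °C and 7.91, 7.83 and 8.16 at 16 °C.

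**Figure D3:**
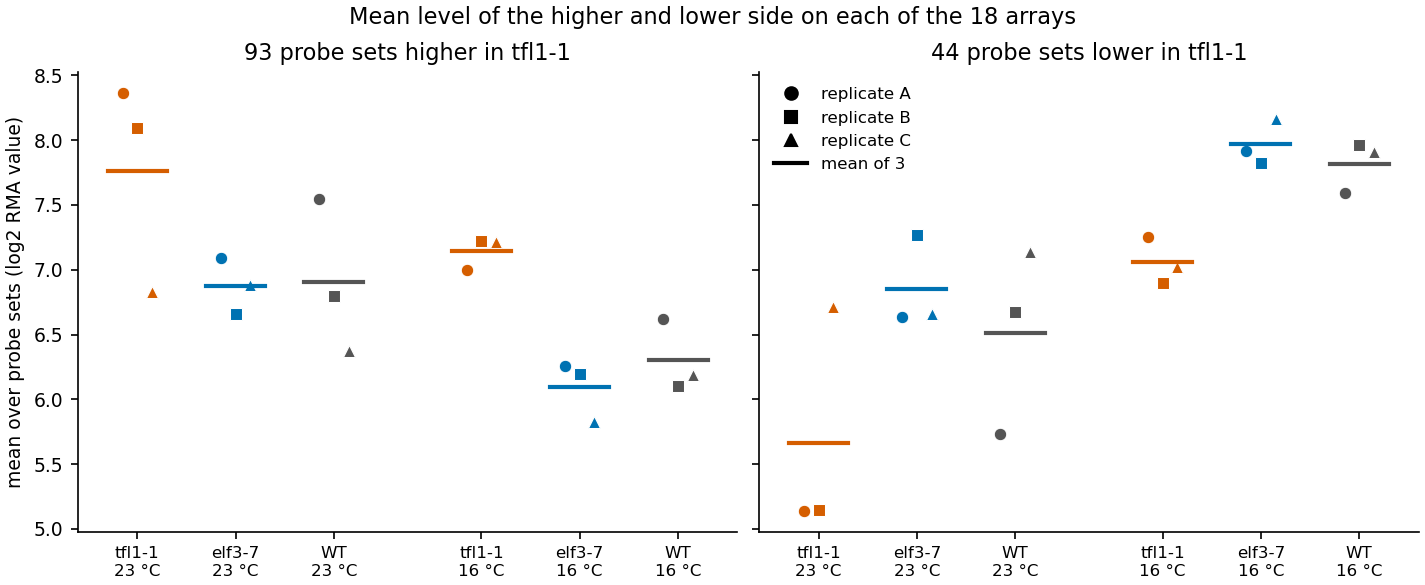
Mean level (log2 RMA value) of the 93 higher members (left panel) and the 44 lower members (right panel) on each array, by genotype and temperature. Points are arrays, shaped by replicate letter, and bars are means of 3. Replicate C of tfl1-1 at 23 °C, at 6.83 and 6.71, lies among the WT arrays of that temperature.

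Differences were also taken between tfl1-1 and WT arrays of the same letter. Across probe sets, the deviations of same-letter tfl1-1 and WT arrays from their group means correlated at 0.62, 0.19 and 0.60 for A, B and C at 23 °C, and at -0.09, 0.09 and 0.55 at 16 °C, so at 16 °C the letters are names rather than pairs for A and B. At 23 °C the median over the higher members was 0.71 in A, 1.30 in B and 0.40 in C, and over the lower members -0.56, -1.47 and -0.35. The 16 °C medians were 0.36, 1.08 and 0.93 on the higher side and -0.31, -1.02 and -0.90 on the lower. Replicate B thus had the widest differences at both temperatures, C the narrowest at 23 °C and A the narrowest at 16 °C.

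In replicate C the direction of the side held at both temperatures for 75 of 93 higher members (21.3% of all probe sets had both differences above 0) and 40 of 44 lower members (28.5% had both below 0). All 137 members kept it at 16 °C, while 18 higher and 4 lower members had the opposite sign at 23 °C. Among named genes these were AR781 (-0.69) and AT2G19970 (-0.66) on the higher side and AT4G36180 (0.11) on the lower, beside others with smaller values. Replicate C reached the threshold of 0.6 in the side's direction for 35 of 93 and 10 of 44 members at 23 °C, and for 78 of 93 and 41 of 44 at 16 °C. The share of all probe sets past 0.6 in C was not counted. In replicate A the opposite sign was found at 16 °C for 15 higher and 5 lower members.

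All 6 letter differences had the sign of the side for 59 of 93 higher members (4.08% of all probe sets had 6 above 0) and 33 of 44 lower members (6.56% had 6 below 0). At least 5 of the 6 reached 0.6 for 17 higher and 7 lower members, including AT1G05340, AT2G19970, AT3G18560, AT1G70420, DFR and AT2G28790. For this count the share of all probe sets was not taken. All 6 reached it for 0 of 93 higher members (0.0044% of all probe sets) and 1 of 44 lower members (0.00879%). The single member was SAT32, with differences between -3.45 and -1.46. All of these arrays entered the group means that chose the members, so these counts describe the set and do not support it.

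**Figure D4:**
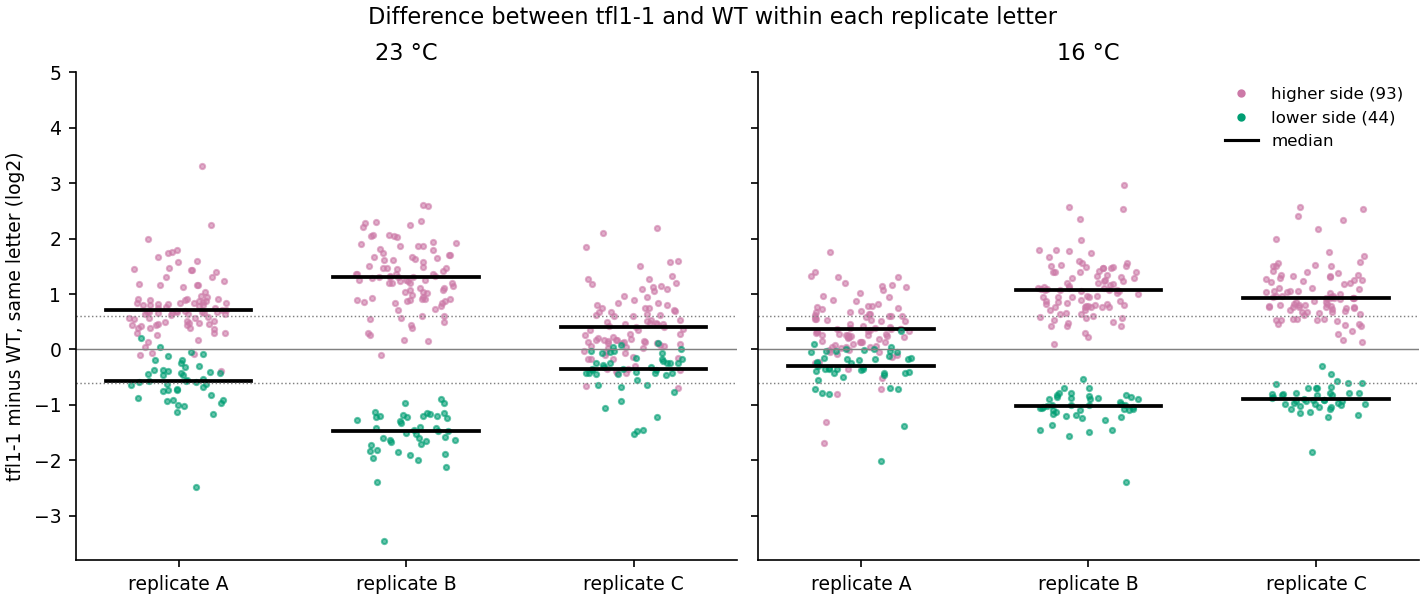
Difference between the tfl1-1 and WT arrays of the same replicate letter (log2, vertical axis) for each member at 23 °C (left panel) and 16 °C (right panel). Each point is a member of the higher or lower side, black bars are medians, and dotted lines mark 0.6 and -0.6. The sides are farthest apart in replicate B and overlap most in replicate C at 23 °C and replicate A at 16 °C.

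The same rule was then applied to the means of 2 letters and read in the third, whose arrays the choice had not used. With 1 array per group left, these are counts with no test. Without C the rule chose 116 higher and 43 lower probe sets, among which were 57 of the 93 higher and 16 of the 44 lower members. In C, 69 of the 116 had both differences above 0 (21.3% of all probe sets) and 29 of the 43 both below 0 (28.5%). The median difference in C was 0.11 at 23 °C and 0.76 at 16 °C on the higher side, and -0.10 and -0.88 on the lower. In arrays that had no part in the choice, replicate C therefore showed the shift at 16 °C and little of it at 23 °C.

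Without A the rule chose 204 higher and 130 lower probe sets, of which 67 and 42 are members. In A, 87 of the 204 (25.1% of all probe sets) and 72 of the 130 (32.7%) kept the sign at both temperatures. Here the medians in A were 0.51 and -0.48 at 23 °C, against -0.02 and -0.12 at 16 °C. Without B the rule chose 40 higher and 10 lower, of which 28 and 7 are members. In B, 34 of the 40 (26.6%) and 9 of the 10 (34.9%) kept the sign. The probe sets chosen with every pair of letters were 9 higher and 4 lower. They included the named genes AT1G70420, ATLP-1 and SAT32. SAT32 was past -0.6 at both temperatures in each left-out letter.

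The elf3-7 minus WT differences of the members also varied by letter. At 23 °C their median on the higher side was -0.41 in A, -0.20 in B and 0.43 in C, and on the lower side 0.91, 0.70 and -0.42. The 16 °C medians were -0.35, 0.07 and -0.30 on the higher side and 0.30, -0.29 and 0.12 on the lower. In C at 23 °C, 74 of 93 higher members were above 0 and 41 of 44 lower members below 0, the directions of the tfl1-1 sides. Of all probe sets, 48.7% were above 0 there. In A and B most members went the other way at 23 °C. There 67 and 62 of 93 higher members were below 0, and 41 of 44 lower members were above 0 in each. Of all probe sets, 49.0% were above 0 in A and 49.8% in B. These differences use the same WT arrays as the tfl1-1 differences.

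A shift of replicate C that is equal in all groups cancels in the differences between group means that chose the members. The contrast of replicate C minus A and B, over all 6 groups, was tested with limma. It called 39 of the 137 members (28.5%), a share close to the 26.3% of all probe sets. Of the 93 higher members, 30 were lower in C (12.7% of all probe sets) and 2 higher (13.6%), with a median difference of -0.45. Of the 44 lower members, 7 were higher in C (15.9%, against 13.6% of all probe sets) and 0 lower. Their median was 0.43, against 0.006 over all probe sets. Without adjustment for multiple tests, 8347 of all probe sets had p under 0.05 in this contrast. AT1G66760 fell by 1.63 in C (SE 0.31, limma adjusted p = 0.00135), AT3G18560 by 0.94 (SE 0.20, limma adjusted p = 0.00329) and CYP71B23 by 0.67 (SE 0.14, limma adjusted p = 0.00280). AT2G36885 on the lower side rose by 0.69 (SE 0.18, limma adjusted p = 0.0100). SAT32 differed by 0.06 (SE 0.18, limma adjusted p = 0.849).

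Control probe sets moved with the letter too. The difference between 3′ and 5′ control probe sets, a reading of RNA integrity or of how far labelling ran along the transcript, was 2.28 ± 0.34 in the C arrays (SD, n = 6), against 1.28 ± 0.14 in the A and B arrays (n = 12), and was highest, 2.74, in tfl1-1 replicate C at 23 °C. The 27 Bacillus control probe sets averaged 5.40 ± 0.65 in C, against 3.18 ± 0.04 in A and B. The part of these differences in the members' values was not tested. Every group holds 1 C array, so letter and group are not confounded, but the C arrays differed among themselves. Their 3′ minus 5′ difference at 16 °C was 1.78 in tfl1-1, 2.31 in elf3-7 and 2.09 in WT. At 23 °C it was 2.74, 2.55 and 2.21. Whether this entered the tfl1-1 minus WT differences in C was not tested.

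Growth temperature was a further contrast of the same arrays. The elf3-7 arrays have no part in the tfl1-1 minus WT difference, but their group means at both temperatures entered the rule through the elf3-7 condition, so the counts below are not independent of the choice of members. In elf3-7 limma called 23 of 137 members for 23 °C minus 16 °C, against 4.87% of all probe sets. On the higher side 15 of 93 were higher at 23 °C (2.55% of all probe sets) and 1 lower, and on the lower side 7 of 44 were lower at 23 °C (2.32%) and 0 higher. The median difference was 0.72 on the higher and -0.96 on the lower side, against 0.03 over all probe sets. With the replicate letter as a block, 50 members were called against 12.8% of all probe sets. On the higher side 33 were higher and 2 lower, and on the lower side 15 were lower. Same-letter elf3-7 arrays deviated together across temperatures, but A and B arrays of different letters did so too. With C alone as a batch term 48 members were called (13% of all probe sets). Leaving out the elf3-7 array of replicate A, B or C at 16 °C gave 13, 9 and 15 called members, and the shares of all probe sets called were 1.60%, 1.33% and 3.71%. Leaving out A or C at 23 °C gave 7 each (0.919% and 1.01% of all probe sets), and leaving out B at 23 °C gave 27 (7.09%).

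The named members called in elf3-7 included AT1G09500, of the cinnamyl alcohol dehydrogenase-like family, which averaged 7.97 ± 1.08 at 23 °C and 4.92 ± 0.43 at 16 °C (SD, n = 3 each; difference 3.05, SE 0.64, limma adjusted p = 0.0175). AT4G14480, also called BLUS1, a kinase of blue light signalling in guard cells, averaged 6.11 ± 0.24 at 23 °C and 4.49 ± 0.44 at 16 °C (difference 1.61, SE 0.34, limma adjusted p = 0.0187). UF3GT averaged 5.38 ± 0.54 at 23 °C and 7.89 ± 0.33 at 16 °C and fell by 2.52 (SE 0.35, limma adjusted p = 0.00164). AT2G19970 was the single member of the higher side called lower at 23 °C, and fell by 2.49 (SE 0.58, limma adjusted p = 0.0268). Of these, UF3GT kept its call in all 13 alternatives run, while AT1G09500 lost it in 5, AT4G14480 in 3 and AT2G19970 in 4. The other called genes named by the same rule were AT4G37180, AT1G13990, AT5G43450, a 2-oxoglutarate-dependent dioxygenase family gene, and AT1G01240, all higher, and DFR and AT1G53070, both lower. Of these AT1G13990 lost its call in 3 of 13 alternatives, AT5G43450 and AT1G01240 in 5 each and AT1G53070 in 6.

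In tfl1-1 and in WT the temperature contrast uses the same arrays as the rule, so these values are given side by side and not as support. In tfl1-1, 36 members were called, against 9.16% of all probe sets, 14 higher (3.98% of all probe sets) and 1 lower of 93 on the higher side and 21 lower (5.18%) and 0 higher of 44 on the lower side. In WT, 28 members were called, against 6.81% of all probe sets, 9 higher (2.83%) and 0 lower of 93 on the higher side and 19 lower (3.98%) and 0 higher of 44 on the lower side. The median difference was 0.58 in tfl1-1 and 0.59 in WT on the higher side, and -1.46 in tfl1-1 and -1.35 in WT on the lower.

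Most members did not pass the test in any one genotype, and their signs are given as a description. In tfl1-1 78 of 93 higher members had a difference above 0 (55.9% of all probe sets) and 44 of 44 lower members one below 0 (44.1%). In elf3-7 the counts were 79 (55%) and 42 (45%), and in WT 80 (58.1%) and 43 (41.9%). With the letter as a block, WT gave 50 called members against 13.9% of all probe sets. When an array was left out, the count over all probe sets moved with the members' count, except without WT replicate C at 23 °C. Without tfl1-1 replicate C at 23 °C the tfl1-1 count was 83 (19.1% of all probe sets called), without A 10 (2.48%) and without B 10 (3.30%). Leaving out tfl1-1 A, B or C at 16 °C gave 9 (2.17%), 15 (3.55%) and 19 (5.23%). In WT, leaving out A at 23 °C gave 5 (1.86%), B at 23 °C 14 (3.34%), B at 16 °C 7 (1.54%) and C at 16 °C 8 (1.62%). Leaving out WT A at 16 °C gave 26 (5.69%). Without WT C at 23 °C the members' count rose from 28 to 36, while the share of all probe sets called fell from 6.81% to 6.18%.

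AT4G37180, a MYB-related transcription factor, was the member called in all 3 genotypes on the higher side among those named. At 23 °C its level was 7.23, 7.30 and 7.02 in tfl1-1, 6.66, 6.41 and 6.73 in elf3-7 and 6.72, 6.42 and 6.30 in WT. At 16 °C it was 6.16, 6.27 and 6.32 in tfl1-1, 5.69, 5.83 and 5.63 in elf3-7 and 5.56, 5.69 and 5.55 in WT. The 23 °C and 16 °C arrays did not overlap within any genotype. It rose by 0.94 in tfl1-1, 0.88 in elf3-7 and 0.88 in WT (SE 0.12 each), with limma adjusted p of 0.00110, 0.00164 and 0.00252, and kept its call in all 13 alternatives in each genotype.

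AT1G73480 rose by 1.00 at 23 °C in tfl1-1 (SE 0.20, limma adjusted p = 0.00917), and its difference was 0.62 in elf3-7 (limma adjusted p = 0.0831) and 0.36 in WT (limma adjusted p = 0.315). The difference between these responses follows from the differences that chose the member and was not tested. AT3G07320 fell by 1.86 in tfl1-1 (SE 0.37, limma adjusted p = 0.00876) and by 1.64 in WT (SE 0.37, limma adjusted p = 0.0188). Both genes kept their call in tfl1-1 in all 13 alternatives, and AT3G07320 lost its WT call in 3. ATLP-1 fell by 2.32 in tfl1-1 (SE 0.48, limma adjusted p = 0.0109) and by 2.08 in WT (SE 0.48, limma adjusted p = 0.0217), and lost each call in 3 of 13 alternatives. DFR fell by 2.33 in tfl1-1 (SE 0.69, limma adjusted p = 0.0476) and by 3.42 in elf3-7 (SE 0.69, limma adjusted p = 0.0148), and lost these calls in 5 and 3 of 13 alternatives, up to adjusted p of 0.171 and 0.0740. In WT its difference was -1.92 (SE 0.69, limma adjusted p = 0.111). UF3GT and AT1G53070 were called lower at 23 °C in all 3 genotypes. UF3GT fell by 1.43 in tfl1-1 and 1.54 in WT (SE 0.35 each, limma adjusted p = 0.021 and 0.0193). Its calls in these 2 genotypes were not followed through the alternatives. AT1G53070 fell by 1.66 and 1.58 (SE 0.35 each, limma adjusted p = 0.0119 and 0.0180), and lost these calls in 2 and 3 of 13 alternatives.

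Of the higher side, AT5G26260, a TRAF-like family gene, was the single member called lower at 23 °C in tfl1-1. Its level in tfl1-1 was 3.79, 5.53 and 7.38 at 23 °C, against 8.43, 8.12 and 8.31 at 16 °C, and it fell by 2.72 (SE 0.75, limma adjusted p = 0.0361). The call was lost in 5 of 13 alternatives, up to an adjusted p of 0.164. Another gene of that family, AT3G28220, went the other way, with 10.90, 10.71 and 9.66 at 23 °C against 9.54, 9.55 and 9.27 at 16 °C in tfl1-1, and rose by 0.97 (SE 0.29, limma adjusted p = 0.0487). This call too was lost in 5 of 13 alternatives, up to an adjusted p of 0.210.

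**Figure D5:**
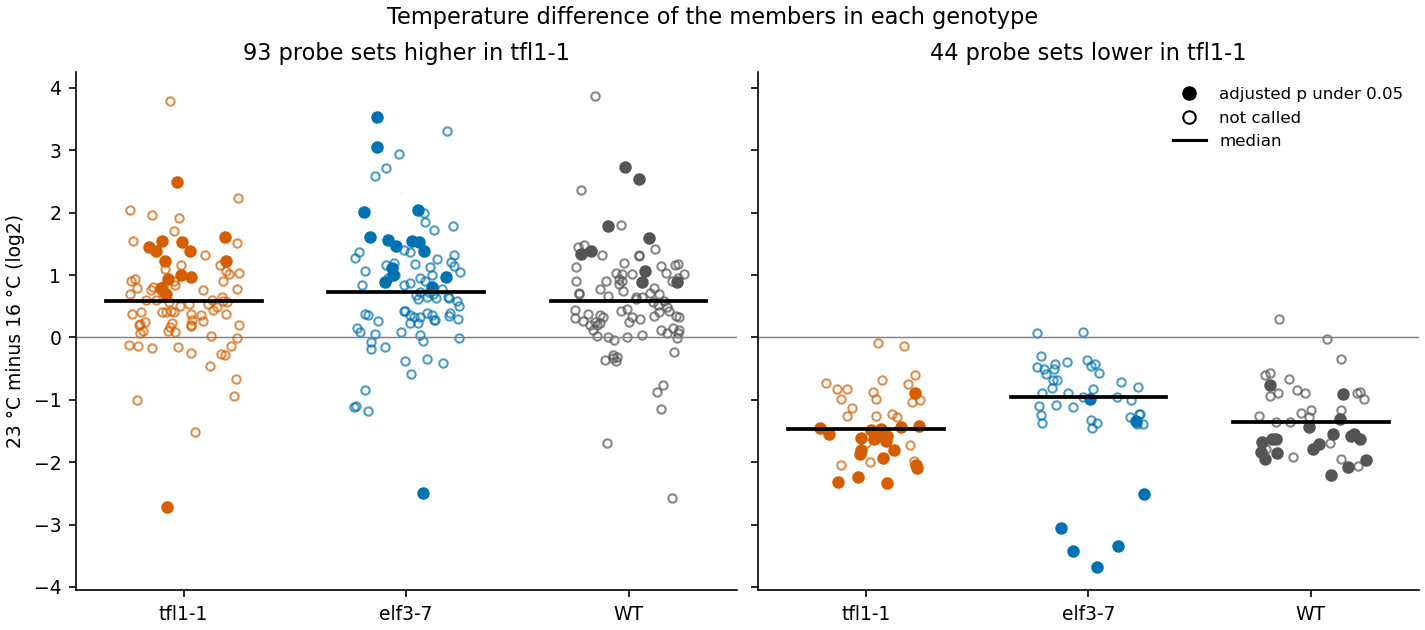
Difference between 23 °C and 16 °C (log2, vertical axis) in tfl1-1, elf3-7 and WT for the 93 higher members (left panel) and the 44 lower members (right panel). Filled points passed limma's adjusted p under 0.05, open points did not, and black bars are medians. Medians are above 0 on the higher side and below 0 on the lower side in each genotype.

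The named members were spread over the 5 chromosomes. Chromosome 1 held 23 of the 61 (37.7%), against 25.7% of all probe sets with a single gene, and the other chromosomes 9 to 10 each. Within 10 genes of each other lay only AT1G21000, of the PLATZ zinc-binding protein family, and its neighbour AT1G21010, both on the higher side.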

How the data were processed

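Total RNA of 18 whole-seedling samples had been hybridised to Affymetrix arrays. The authors deposited log2 values that come, per the submitters' processing notes, from RMA, whose version is not given in the sources used here. RMA had already put the arrays on one scale, and the number of arrays limits precision. The labels state 3 biological replicates per group with independent RNA.

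Of 22810 probe sets, 64 controls were left out. Names came from the platform annotation, updated through RefSeq identifiers: 13513 probe sets name 1 gene, 503 several and 8730 none here. RefSeq served for names and gene order only.

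Tests used limma 3.58.1 (R 4.3.3), with a model of 6 group means over all arrays, two-sided tests, Benjamini-Hochberg adjustment over 22746 probe sets and calls at adjusted p under 0.05. Replicate C entered as an indicator in its own fit. Other steps used Python 3.11.15. On simulated elf3-7 temperature data with 22746 probe sets, 68.0% of planted log2 differences of 1 and 84.0% of -1 were called. The simulated noise was independent between probe sets and arrays and held no replicate effect. The real arrays have one, so these rates need not hold for them. Named were, per side, the 15 single-gene members with the largest smaller difference, further members with symbols, the 3 nearest the threshold on either side of it, list members, and up to 6 called per direction and temperature contrast. Other names were chosen after their values were seen. Members and lists were chosen with earlier results of these data known.

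Same-letter arrays at 23 °C and 16 °C deviated together in elf3-7 (r of 0.45, 0.34 and 0.62 across probe sets for A, B and C) and WT (0.44, 0.30 and 0.55). The letters were taken as pairs there as a setting. In elf3-7, A and B arrays of different letters also deviated together (r of 0.30 and 0.28). The values there set C apart from A and B and do not show 3 separate pairs. In tfl1-1 the same-letter arrays did not all deviate together (-0.10, 0.29 and 0.27). Alternatives were the replicate block, C as a batch term, A and B alone, quantile normalization, equal array medians, a filter on dim probe sets, array weights, other thresholds, medians, and leaving out arrays. Promoter motifs were not analysed here.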

Additional observations from a re-analysis of the deposited data

How the results depend on the processing

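The members rest on the threshold and on the letters averaged. With the tfl1-1 and elf3-7 limits moved together, a threshold of 0.5 gave 172 higher and 105 lower members, 0.8 gave 17 and 7, and 1.0 gave 7 and 2. Medians in place of means gave 213 and 141, of which 60 and 33 are members. Leaving out 1 letter gave 40 to 204 higher and 10 to 130 lower, of which 28 to 67 and 7 to 42 are members. The share keeping its sign in the left-out letter was 47.6% for A, 86.0% for B and 61.6% for C, and 69.2% for C at a threshold of 0.8. Both scalings and the filter on dim probe sets kept the counts within 1.5 times, with 80 to 93 higher and 44 to 52 lower.

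The count of members called for temperature was 36 in tfl1-1, 23 in elf3-7 and 28 in WT. It was 55, 50 and 50 with the replicate block (letters paired), where 4012, 2920 and 3157 of all probe sets were called, against 2084, 1107 and 1549 without it. It was 55, 48 and 46 with C as a batch term (4034, 2948 and 3196 of all), and 99, 68 and 61 with array weights (7100, 4419 and 3546). Replicates A and B alone gave 90, 21 and 59 (4970, 914 and 2592), and in elf3-7 16 of the 23 calls were kept. Leaving out 1 array gave 9 to 83 in tfl1-1, 7 to 27 in elf3-7 and 5 to 36 in WT. The cause was not tested; leaving out arrays also lowers the number compared. Of the single-gene temperature results under these alternatives, 295 kept their call, 95 lost it and 0 reversed. In the tfl1-1 pairing, where 1 of 3 letters had a negative correlation, the replicate block is a setting and not the design.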
